A study of Mus musculus with 24 samples.

Results

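The 9 genes described here encode transcription factors of the photoreceptor lineage of the mouse retina: Otx2, Prdm1, Rorb, Crx, Nrl, Nr2e3, Esrrb, Thrb and Rxrg. They were taken by symbol from 21887 protein-coding genes, and all 9 were found in the gene annotation. A peak was assigned to a gene when it shared at least 1 bp with the gene or with the 5 kb on either side of it, and 50 kb was used as a second distance. The data are CUT&RUN peaks, which mark where an antibody-guided nuclease released DNA from nuclei.

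The retinas were from wild-type mice on postnatal day 2 (called P2) or 17 (called P17), with no other genotype or treatment named in the labels. In all there were 24 libraries of 600000 nuclei each. At each age 4 libraries were made for SOX8 with 2 antibodies, and 2 libraries each for SOX9, the histone mark H3K4me3, the histone mark H3K27ac and a control IgG. The authors deposited 1 peak list for each target and age other than IgG, 8 in all. The IgG libraries were not analysed here.

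Photoreceptors are born from dividing retinal progenitors, and their genes are switched on by a chain of transcription factors. OTX2 starts the lineage with the help of RORB and PRDM1, CRX drives the genes of both rods and cones, NRL and NR2E3 set the rod program, and the nuclear receptors encoded by Thrb and Rxrg act in cones. Rods are still being born in the first days after birth and are the most common cell of the mature mouse retina. SOX8 and SOX9 are related HMG-box factors, and SOX9 is known in the retina from progenitors and Müller glia. H3K4me3 marks the start sites of active genes and H3K27ac marks active start sites and enhancers.

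At P17, 6 of the 9 genes had a SOX9 peak within 5 kb and 4 had a SOX8 peak, against 15.7% and 13.0% of all protein-coding genes. At P2, 5 had a SOX9 peak and 1, Crx, had a SOX8 peak, against 27.7% and 15.1% of all genes. Crx was in all 8 lists, and Rxrg had no SOX8, SOX9 or H3K4me3 peak at either age. Nrl and Esrrb had both SOX8 and SOX9 peaks at P17 and neither at P2. Nr2e3, which is also a gene of the rod program, had SOX9 at both ages and SOX8 at neither. Each list is a single value per gene with no replicate, so none of these differences was tested.

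**Figure D1:**
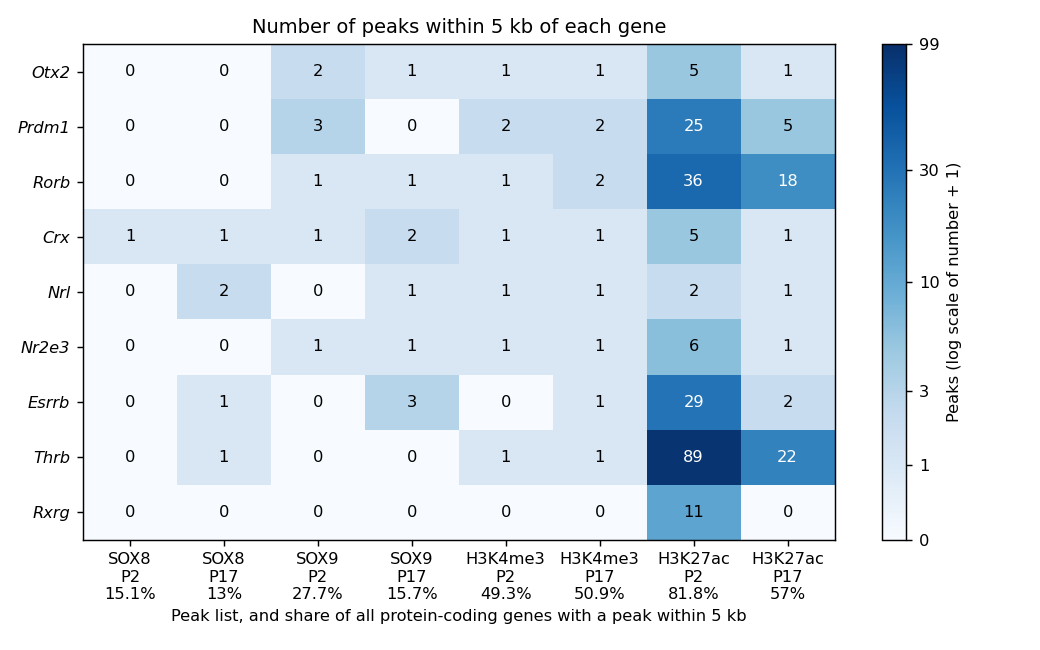
Number of peaks within 5 kb of each of the 9 genes (rows) in each of the 8 peak lists (columns), with the colour on a log scale of the number plus 1. Under each list stands the share of all protein-coding genes with a peak there. Only Crx has a peak in the P2 SOX8 list, and Rxrg has peaks in the P2 H3K27ac list alone.

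The lists differed greatly in length, which touches every count below. SOX8 had 2653 peaks at P2 and 2400 at P17, and SOX9 had 5476 and 2855. H3K4me3 had 9134 and 9629 peaks, while H3K27ac had 287845 at P2 and 29909 at P17. Median widths ran from 1166 bp in the P2 H3K27ac list to 5336 bp in the P17 SOX9 list. The median of the P2 SOX9 list was 2668.5 bp, so SOX9 widths at P2 and P17 are not on the same scale. The lists carry no signal height, so the depth behind a peak is unknown. The centres of 68.3% of P2 and 63.4% of P17 H3K4me3 peaks lay within 1 kb of an annotated start site, and of 2.67% and 2.55% after the lists were moved by 10 kb. Of 5 photoreceptor markers an H3K4me3 peak stood at 2 at P2 (Gnat1 and Prph2) and at 5 at P17. Of 5 progenitor genes 5 had one at both ages, of 5 Müller glia markers 4 and then 2, of 4 bipolar markers 0 and then 2, of 3 amacrine markers 3 at both ages, and of 3 ganglion cell markers 1 and then 0. Microglia had 1 of 3 markers at both ages, endothelium 0 of 3, and other tissues 1 of 5. The retina was measured whole, so a change in the share of a cell type and a change of signal per cell cannot be told apart. The members are also long genes, with a median length of 41262 bp against 17169 bp over all genes, and a longer gene gives a peak more room. The part of gene length in the counts was not tested.

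The promoter sequences that the SOX results below turn on are printed here so that the start sites can be compared by their letters. Each run is the 250 bases before an annotated start site, 5′ to 3′ in the direction of transcription, from RefSeq on GRCm38.p6. Capitals mark matches to 5 short motifs searched on both strands: ACAAT and ACAAAG (core sites of SOX proteins), TAATCC (OTX2 and CRX), TGCTGA (NRL) and AGGTCA (nuclear receptors). A match on the other strand appears as its reverse complement, such as GGATTA for TAATCC.
Otx2 start 1 (chr14:48667645-48667894, - strand): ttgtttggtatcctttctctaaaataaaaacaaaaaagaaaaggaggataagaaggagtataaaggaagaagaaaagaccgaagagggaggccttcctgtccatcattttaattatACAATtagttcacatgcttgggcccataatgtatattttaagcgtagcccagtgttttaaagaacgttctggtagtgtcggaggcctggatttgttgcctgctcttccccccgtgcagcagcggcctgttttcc
Rorb start 1 (chr19:19111197-19111446, - strand): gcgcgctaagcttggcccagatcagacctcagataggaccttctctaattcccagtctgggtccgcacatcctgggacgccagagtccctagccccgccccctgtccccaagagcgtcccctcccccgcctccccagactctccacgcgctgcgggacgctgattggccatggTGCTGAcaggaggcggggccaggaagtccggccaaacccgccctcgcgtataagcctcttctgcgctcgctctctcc
Rorb start 2 (chr19:19001118-19001367, - strand): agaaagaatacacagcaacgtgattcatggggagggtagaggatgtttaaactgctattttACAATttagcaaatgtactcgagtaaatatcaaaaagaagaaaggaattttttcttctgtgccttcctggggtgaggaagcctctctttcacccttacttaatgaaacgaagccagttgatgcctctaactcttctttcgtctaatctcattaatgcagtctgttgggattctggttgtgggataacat
Crx (chr7:15879956-15880205, - strand): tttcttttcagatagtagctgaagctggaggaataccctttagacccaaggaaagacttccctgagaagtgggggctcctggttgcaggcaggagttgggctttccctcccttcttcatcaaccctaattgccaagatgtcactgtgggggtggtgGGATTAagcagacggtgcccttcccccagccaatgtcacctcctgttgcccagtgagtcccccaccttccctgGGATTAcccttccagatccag
Nrl (chr14:55524253-55524502, - strand): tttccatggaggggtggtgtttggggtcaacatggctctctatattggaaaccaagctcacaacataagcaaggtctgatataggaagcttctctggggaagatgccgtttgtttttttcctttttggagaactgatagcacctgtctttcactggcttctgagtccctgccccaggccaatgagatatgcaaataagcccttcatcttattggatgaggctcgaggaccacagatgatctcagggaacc
Nr2e3 (chr9:59950080-59950329, - strand): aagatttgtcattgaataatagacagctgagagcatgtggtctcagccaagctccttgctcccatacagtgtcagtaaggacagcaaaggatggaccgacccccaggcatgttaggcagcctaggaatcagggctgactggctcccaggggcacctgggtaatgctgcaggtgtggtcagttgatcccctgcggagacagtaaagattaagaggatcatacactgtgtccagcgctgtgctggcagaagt
Esrrb start 2 (chr12:86421394-86421643, + strand): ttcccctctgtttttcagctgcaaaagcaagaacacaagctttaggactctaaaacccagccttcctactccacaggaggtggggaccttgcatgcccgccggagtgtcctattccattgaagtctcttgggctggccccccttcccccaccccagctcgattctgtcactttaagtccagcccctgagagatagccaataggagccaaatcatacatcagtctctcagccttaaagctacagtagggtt
Thrb start 1 (chr14:17660710-17660959, + strand): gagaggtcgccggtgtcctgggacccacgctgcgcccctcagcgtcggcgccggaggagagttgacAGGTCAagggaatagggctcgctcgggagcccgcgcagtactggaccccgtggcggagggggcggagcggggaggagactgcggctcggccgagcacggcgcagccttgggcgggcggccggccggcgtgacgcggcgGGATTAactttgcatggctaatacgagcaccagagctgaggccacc

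All of these promoters but Rorb start 2 belong to start sites that a SOX8 or SOX9 peak covered at 1 or both ages, and Rorb start 2 is shown against Rorb start 1. Otx2 starts 2 and 3 and the Prdm1 start were also under a SOX9 peak at 1 or both ages and are not printed. The Crx promoter holds TAATCC at 2 places, 94 to 89 and 21 to 16 bases before the start, both on the other strand. Of all 21263 annotated promoters of this length, 5.82% hold TAATCC, and 3 of the 16 promoters of the 9 genes do. The 2 others are Otx2 start 3 and Thrb start 1. ACAAT is in 6 of the 16 and in 25.1% of all promoters, and ACAAAG is in 0 of the 16 and in 14.9% of all. The promoters with ACAAT are those of Otx2 starts 1 and 4, Rorb start 2, Rxrg start 1, Esrrb start 1 and Prdm1. Of these, Otx2 start 1 was under SOX9 at both ages and the Prdm1 start at P2. No SOX8 or SOX9 peak covered the others at either age. TGCTGA is in 2 of the 16 against 14.9%, and AGGTCA is in 2 of the 16 against 12.8%. The promoters of Nrl, Nr2e3 and Esrrb start 2 hold none of the 5 motifs. A match is a description of letters, and a window without one says nothing about binding elsewhere under a peak several kilobases wide.

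The promoters of the 9 genes hold a median of 6 CG dinucleotides in the 250 bases over the 16 starts. There is 1 in Crx, 2 in Nrl, 3 in Nr2e3 and 3 in Esrrb start 2, and likewise 2 in Thrb start 2, 6 and 7 in the Rxrg promoters and 6 in Otx2 start 1. The Rorb promoters differ from each other, with 18 at start 1 and 4 at start 2, and Thrb start 1 has 30. Otx2 starts 2, 3 and 4 have 8, 14 and 9, Prdm1 has 15 and Esrrb start 1 has 6. Over all promoters the median is 10, and 33.7% have 4 or fewer. The member starts with 4 or fewer are those of Crx, Nrl, Nr2e3, Rorb start 2, Thrb start 2 and Esrrb start 2. Their share of the 16 lies near that of all promoters. Starts covered by a P17 SOX9 peak have a median of 19, and starts covered by a P17 H3K4me3 peak a median of 18. All 7 member starts under P17 SOX9 peaks have fewer CG than the SOX9 median of 19. So has every other member start except Thrb start 1, so a count below 19 is not particular to the starts under SOX9. The 7 are the single starts of Crx, Nrl and Nr2e3, Esrrb start 2, Otx2 starts 1 and 2 with 6 and 8, and Rorb start 1. Rorb start 1, at 18, lies just below that median, and the windows of Otx2 starts 1 and 2 overlap, so they are not separate cases.

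Over the 16 annotated starts of the 9 genes, a P17 SOX9 peak covered 7 and a P17 SOX8 peak 3, against 10.7% and 8.55% of all starts. At P2 a SOX9 peak covered 7 and a SOX8 peak 1, against 22.6% and 12.2%. H3K4me3 covered 10 at P2 and 12 at P17, against 43.9% and 45.2%. H3K27ac covered 14 at P2 and 13 at P17, against 60.4% and 46.9%. The starts are not independent, because Otx2 has 4 and Rorb, Thrb, Rxrg and Esrrb have 2 each.

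There were 23 SOX8 or SOX9 peaks within 5 kb over both ages, and 15 of them covered a start site of a member. All 23 overlapped an H3K27ac peak of the same age, and 18 overlapped an H3K4me3 peak. Over all peaks of the 4 SOX lists, 53.5% to 69.6% covered a coding gene's start, 66.5% to 90.1% overlapped H3K4me3 and 84.0% to 99.7% overlapped H3K27ac, so the members' counts lie near those of SOX peaks in general. The 5 off H3K4me3 were SOX9 peaks, at Otx2, Crx, Prdm1 and, in a pair, Esrrb. Of the 23 peaks, 17 were wider than the median of their list.

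**Figure D2:**
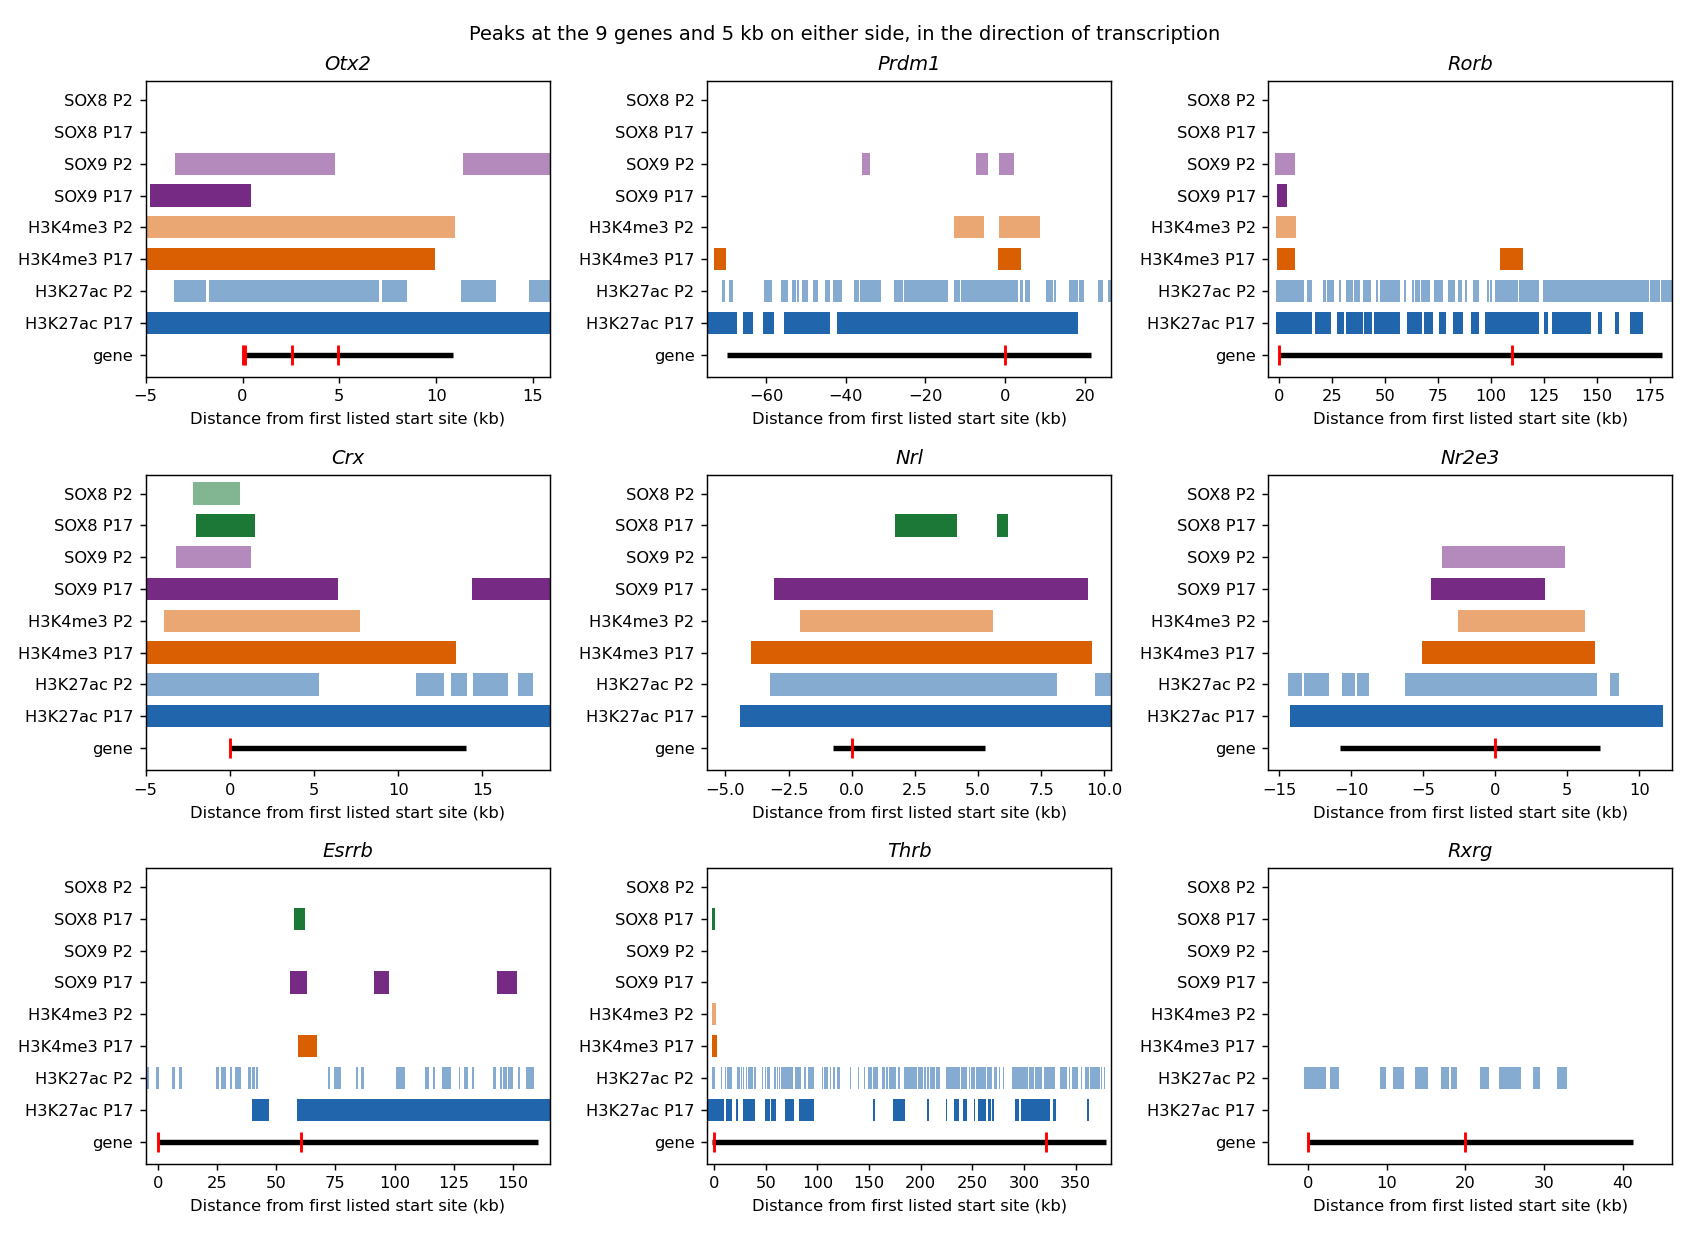
Peaks of the 8 lists along each gene and its 5 kb flanks, in the direction of transcription, as distance in kb from the first listed start site. Pale bars are P2, dark bars P17, the black line is the gene and red ticks are its start sites. SOX9 peaks at Crx, Nrl and Esrrb cover more of the window at P17 than at P2, and those at Otx2, Rorb, Prdm1 and, by a little, Nr2e3 cover less.

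Among the genes that start the lineage, Otx2 (a homeodomain factor needed for photoreceptor and bipolar fate) lies on the minus strand at chr14:48656781-48667644 in GRCm38. It had no SOX8 peak at either age. At P2 a SOX9 peak of 8263 bp (chr14:48662891-48671153) covered 3 of its 4 start sites and ranked 46 by width among 5476 SOX9 peaks. At P17 the SOX9 peak there was 5195 bp wide and covered 2 start sites, near the middle of its list at rank 1498 of 2855. The first start site, whose promoter is printed above, was thus under SOX9 at both ages. That promoter holds an ACAAT 134 to 130 bases before the start, but most other member starts with an ACAAT were under no SOX peak.

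A second P2 SOX9 peak of 5323 bp began 537 bp past the 3′ end of Otx2 (chr14:48650922-48656244), off H3K4me3 and on H3K27ac. It was not in the P17 list. Within 50 kb the P2 list held 1 more SOX9 peak, of 1945 bp, 46593 bp beyond the gene's 3′ end, and no other protein-coding gene lies that near. The H3K4me3 peak over Otx2 was among the widest in the genome, 15896 bp at P2 (rank 13 of 9134) and 18554 bp at P17 (rank 8 of 9629). At P2 it spanned the whole gene.

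Prdm1 (a zinc-finger repressor that holds bipolar fate back in early photoreceptors) lies on the minus strand at chr10:44437174-44528558. It was the member that had SOX9 peaks at P2 and none at P17. The 3 P2 peaks were 3684 bp over the listed start and, upstream of that start but within the annotated gene, 2973 bp (chr10:44463141-44466113) and 2022 bp (chr10:44492729-44494750), the last of them off H3K4me3. No SOX8 peak lay within 50 kb at either age. H3K4me3 was narrower at P17 as well: 10170 and 7634 bp at P2, and 5709 bp over the same start at P17. The P17 list held 1 more H3K4me3 peak of 3084 bp, 300 bp beyond the upstream end of the annotated gene (chr10:44528858-44531941), where the P2 list had none.

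Rorb (an orphan nuclear receptor that acts upstream of Nrl in rods) lies on the minus strand at chr19:18930609-19111196 and has 2 annotated start sites. Start 1 was under SOX9 at both ages. The P2 SOX9 peak was 9481 bp wide (chr19:19103484-19112964, rank 34), and the P17 peak was 4587 bp (rank 1781). H3K4me3 over start 1 measured 9138 bp at P2 and 8380 bp at P17. Rorb start 2, inside the gene, was under H3K4me3 at P17 and not at P2, with a peak of 10992 bp (chr19:18995970-19006961, rank 110). No SOX peak covered start 2 at either age, and the nearest SOX9 peaks were 102367 bp away at P2 and 106516 bp at P17. H3K27ac covered both starts at both ages. The gene thus had 1 start with SOX9 and H3K4me3 at both ages, rich in CG, and 1 start without SOX9 that had H3K4me3 at P17, poor in CG.

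Crx (a homeodomain factor that activates rod and cone genes) lies on the minus strand at chr7:15865947-15879955 and was the member with SOX8 and SOX9 peaks at both ages. All of them except 1 covered its single start site. The SOX8 peaks were 2830 bp at P2 and 3532 bp at P17. The SOX9 peak was 4470 bp at P2 (rank 422) and 12563 bp at P17 (chr7:15873503-15886065, rank 89 of 2855). Within their own lists these peaks were wider than 92.3% and 96.9% of SOX9 peaks. A second P17 SOX9 peak of 6866 bp began 386 bp past the 3′ end (chr7:15858696-15865561), off H3K4me3 and on H3K27ac. H3K4me3 was 11638 bp wide at P2 and 22398 bp at P17, where it ranked 5 among all 9629 peaks. The start of Crxos, a neighbouring gene within 5 kb, was under the same SOX9 and H3K4me3 peaks, so peaks there cannot be assigned to Crx alone.

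Nrl (a bZIP factor required for rod fate) lies on the minus strand at chr14:55518978-55524981. No SOX peak was within 5 kb at P2. At P17 a SOX9 peak of 12411 bp (chr14:55514903-55527313, rank 93) spanned the entire gene, whose length is 6004 bp. The P17 SOX8 list had a peak of 2447 bp inside the gene, 1727 bp from the start site, and a peak of 463 bp at the 3′ flank, near the narrow end of its list at rank 2354 of 2400. H3K4me3 spanned the gene at both ages, 7642 bp wide at P2 (rank 258) and 13483 bp at P17 (rank 48). H3K4me3 was thus over the Nrl start at P2, when no SOX peak was listed there. Cpne6, within 5 kb, was also overlapped by the P17 SOX9 and H3K4me3 peaks.

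Nr2e3 (a nuclear receptor that represses cone genes in rods) lies on the minus strand at chr9:59942771-59960834. Its start site was under a wide SOX9 peak at both ages, 8546 bp at P2 (chr9:59945245-59953790, rank 43) and 7936 bp at P17 (rank 408). No SOX8 peak lay within 50 kb at either age. H3K4me3 measured 8818 bp at P2 and 12011 bp at P17, ranks 139 and 81. Nr2e3 and Nrl differed at P2, where Nr2e3 had a SOX9 peak over its start and Nrl had none.

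Esrrb (an orphan nuclear receptor of rods) lies on the plus strand at chr12:86361117-86521628 with 2 annotated start sites. At P2 it had no SOX8, SOX9 or H3K4me3 peak. At P17 start 2, inside the gene, was covered by SOX8 (4950 bp, chr12:86418574-86423523, rank 218), by SOX9 (7149 bp, chr12:86416880-86424028) and by H3K4me3 (7892 bp, chr12:86420423-86428314). Start 1 was under none of these and lay 55763 bp from the nearest P17 SOX9 peak. The P17 SOX9 list held 2 more peaks inside Esrrb, 6331 bp (chr12:86452420-86458750) and 8340 bp (chr12:86504555-86512894), both off H3K4me3 and on H3K27ac. Esrrb thus had 3 SOX9 peaks at P17, the most of any of the 9 genes in that list.

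The cone receptors had fewer SOX peaks than the other members. Thrb (encoding thyroid hormone receptor beta, which sets cone opsin choice) lies on the plus strand at chr14:17659225-18040097. It had 1 SOX peak in all 4 SOX lists, a P17 SOX8 peak of 2318 bp over start 1 (chr14:17659125-17661442, rank 1709 of 2400). No SOX9 peak lay within 50 kb at either age. H3K4me3 over start 1 was 3747 bp at P2 (rank 3938) and 5243 bp at P17 (rank 1677), and start 2 was under H3K27ac alone. A further protein-coding locus, LOC115488350, overlaps this start.

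Rxrg (encoding retinoid X receptor gamma, a partner of the thyroid hormone receptor in cones) lies on the plus strand at chr1:167598362-167639623. It had no SOX8, SOX9 or H3K4me3 peak within 50 kb at either age. The P2 H3K27ac list held 11 peaks at Rxrg, of 816 to 2844 bp, and the P17 list held none. The difference ended with equal list lengths: when the P2 list was limited to its widest peaks in the number of the P17 list, Rxrg had no H3K27ac peak at P2 either. Absence from these lists is absence at the authors' threshold in whole retina.

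**Figure D3:**
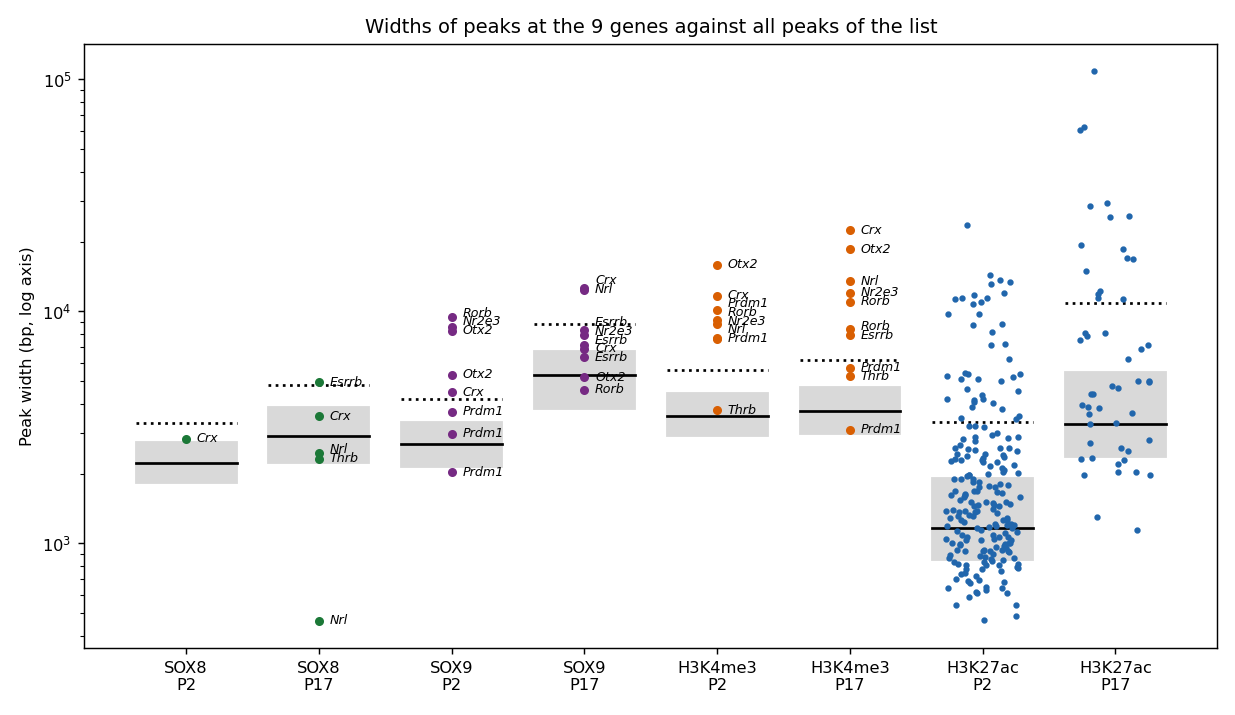
Width in bp on a log axis of every peak within 5 kb of the 9 genes (points, with names for SOX and H3K4me3 set slightly apart where they would overlap) in each list. Grey boxes span the quartiles of all peaks in the list, the solid line is the median and the dotted line the 90th percentile. Most H3K4me3 points at both ages lie above the dotted line, and Thrb lies inside the box at P2.

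Set beside the rest of the genome, H3K4me3 was common at the members and also wide. An H3K4me3 peak stood within 5 kb of 7 of 9 genes at P2 and 8 at P17, against 49.3% and 50.9% of all genes. Rxrg and Esrrb lacked one at P2, and Rxrg at P17. The widest 5% of H3K4me3 peaks began at 6598 bp at P2 and 7343 bp at P17, and Otx2, Crx, Nrl, Nr2e3 and Rorb had a peak above the limit at both ages. Prdm1 did so at P2 and Esrrb at P17. SOX peaks move with this width over the whole genome: SOX9 overlapped 65.7% of the widest 5% of P17 H3K4me3 peaks and 19.8% of all. At P2 SOX9 overlapped 84.0% of the widest 5% and 47.3% of all. SOX8 overlapped 61.1% against 25.8% at P2, and 45.7% against 17% at P17. The part of H3K4me3 width in the SOX peaks at the 9 genes was not tested.

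The members can also be read against genes that carry H3K4me3 at the same age, a denominator chosen after the values were seen. At P17 a SOX9 peak was within 5 kb of 6 of the 8 members with H3K4me3, against 27.4% of all genes with the mark. A P17 SOX8 peak was near 4 of the 8, against 23.1%. At P2 SOX9 was near 5 of the 7 members with the mark against 53.3%, and SOX8 near 1 of 7 against 29.8%. At P2 the SOX9 count thus lay above the share of marked genes and the SOX8 count below it. With so few genes neither difference can be read as a trait of the members, and neither was tested.

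Between the ages, a SOX8 peak within 5 kb was present at P17 and absent at P2 for 3 members, Nrl, Thrb and Esrrb, against 4.94% of all genes. The opposite held for 0 members against 7%. SOX9 was present at P17 alone for 2 members, Nrl and Esrrb, against 4.35%, and at P2 alone for 1, Prdm1, against 16.4%. In the genome as a whole, then, more genes had SOX9 at P2 alone than at P17 alone, and among the 9 genes it was 1 against 2. Esrrb was the 1 member with H3K4me3 at P17 alone, against 5% of genes, and 0 had it at P2 alone, against 3.40%. H3K27ac was at P17 alone for 0 members against 0.315%, and at P2 alone for 1, Rxrg, against 25.1%.

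H3K27ac was present at nearly all members, and its extent tells more than its presence. A peak was within 5 kb of 9 of 9 genes at P2 and 8 at P17, against 81.8% and 57.0% of all genes. At P17 single peaks covered whole loci: 29244 bp over Otx2 and 62314 bp over Crx, each filling 100% of the gene and its flanks. At Nrl 1 peak of 19399 bp and at Nr2e3 1 peak of 25880 bp filled 92.0% and 92.2%. At P2 the shares of these 4 loci were 69.9% for Otx2, 66.0% for Crx, 74.8% for Nrl and 65.6% for Nr2e3, in 2 to 6 peaks each.

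Esrrb went from 25.8% in 29 peaks at P2 to 66.7% in 2 peaks at P17, the wider of them 108147 bp. Prdm1 went from 57.9% in 25 peaks to 83.6% in 5 peaks, although its SOX9 peaks were at P2 alone. Rorb was at 75.2% in 36 peaks and then 68.9% in 18, and Thrb at 59.1% in 89 peaks and then 37.1% in 22. The mean over all genes was 26.8% at P2 and 16.2% at P17.

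More bases were under H3K27ac at P17 than at P2 for 6 of 9 members (Otx2, Crx, Nrl, Nr2e3, Prdm1 and Esrrb), against 20% of all genes. The P2 list was much longer than the P17 list. Limited to its widest peaks in equal number, an alternative added after seeing the data, it covered 41.9% of Otx2, 42.9% of Crx, 70.9% of Nrl, 47.5% of Nr2e3, 54.1% of Rorb, 30.2% of Prdm1, 32.5% of Thrb and 6.65% of Esrrb. Every member but Rxrg then had a larger share at P17, Rorb and Thrb included. Shortening the P2 list alone can only lower the P2 share of any gene. The share of all genes under this limit is not given here, so this count cannot be read as particular to the members. More bases were under H3K4me3 at P17 for 6 of 9 (Crx, Nrl, Nr2e3, Rorb, Thrb and Esrrb), against 32.0% of all genes. For Otx2 the covered bases within 5 kb were 15896 at P2 and 14936 at P17, because part of its wider P17 peak lay beyond the upstream flank.

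**Figure D4:**
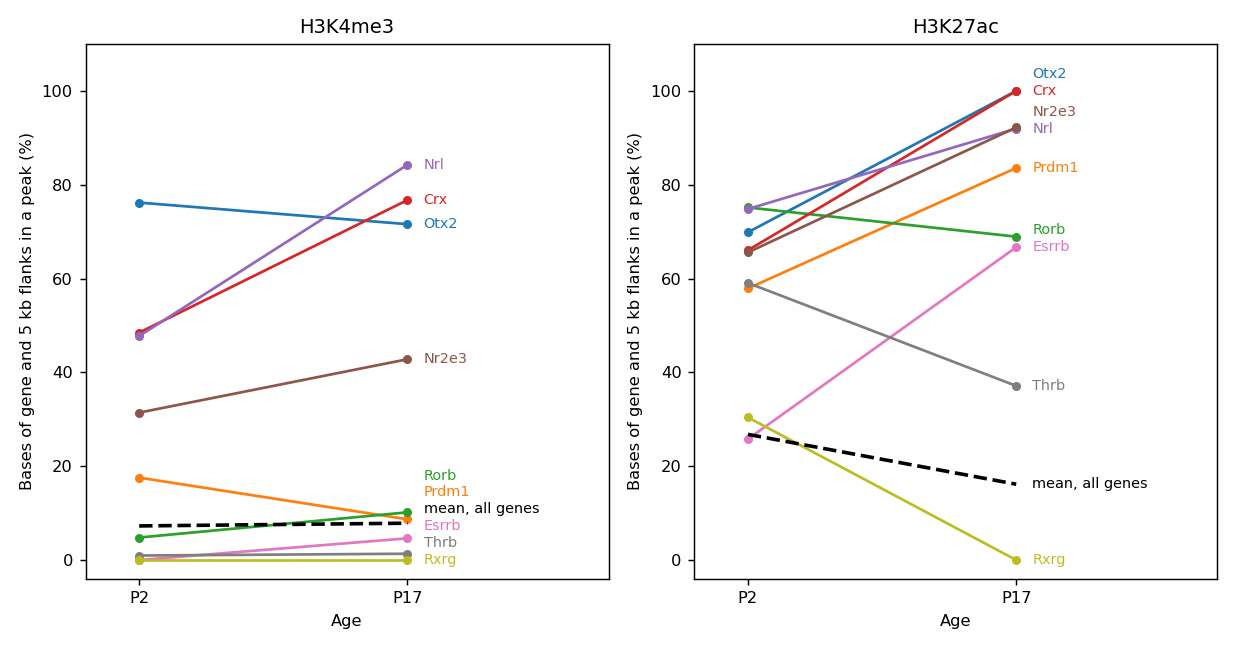
Share of each gene and its 5 kb flanks that lies in an H3K4me3 peak (left) or H3K27ac peak (right) at P2 and P17, in percent, 1 list per point, with the mean over all genes as a dashed line. In H3K27ac the lines of Otx2, Crx, Nr2e3, Nrl, Prdm1 and Esrrb go up while the mean of all genes goes from 26.8% to 16.2%.

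At 50 kb the counts were 2 members for P2 SOX8 (Crx and Nrl) against 28.8% of all genes, and 4 for P17 SOX8 against 24.8%. SOX9 was within 50 kb of 6 members at both ages, against 46.2% at P2 and 28.2% at P17. H3K4me3 counts were 7 against 65.5% at P2 and 8 against 66.7% at P17, and H3K27ac counts were 9 against 91.1% and 8 against 72.0%. The SOX peaks added at Nrl and Crx lay nearer to the start of another gene than to that of the member. At Nrl each of the 4 SOX lists had a peak over the start of Dcaf11, in the P2 SOX9 list 34260 bp upstream of Nrl. With this distance Nrl no longer counted as having SOX9 or SOX8 at P17 alone, which left 1 member for SOX9 (Esrrb) and 2 for SOX8 (Thrb and Esrrb). Within 1 kb of a start site, too, 2 members had SOX8 at P17 alone.

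Genes that work with the members were read by the same rule from lists that were put together with knowledge of earlier results. Of all protein-coding genes, 15.1% had SOX8 within 5 kb at P2 and 13.0% at P17. For SOX9 these shares were 27.7% and 15.7%, and for H3K4me3 49.3% and 50.9%. Among 18 other regulators of photoreceptors, 10 had SOX8 and 10 had SOX9 within 5 kb at P17, and 8 and 12 at P2. Mef2d (a cofactor of CRX), Casz1, Pias3, Rax, Tbx2 and Nr1d1 had both at both ages, while Neurod1, a bHLH factor of the lineage, had SOX9 at both ages and no SOX8. Among 14 rod phototransduction genes, the targets of CRX, NRL and NR2E3, 10 had a SOX9 peak at P17 (among them Gnat1, Pde6a, Pde6b, Cngb1, Sag and Grk1) and 1 at P2 (Gnb1). SOX8 was at 2 of the 14 at both ages, near the share of all genes, with Gnat1 among them each time. H3K4me3 was at 14 of these 14 at P17 and at 4 at P2. Among 10 cone phototransduction genes, 1 (Gnb3) had SOX peaks, in all 4 SOX lists, and 2 had H3K4me3 at each age. In the P17 SOX9 list the 1 of 10 cone genes is near the 15.7% of all genes, and the cone receptors Thrb and Rxrg were absent. The difference between rod and cone genes was not tested.

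Of 13 paralogues of the members, 6 had SOX9 at P17 and 9 at P2, against 15.7% and 27.7% of all genes. The paralogues of the cone receptors differed from the members: Thra, Rxra and Rxrb, which are expressed in many tissues, had SOX9 peaks at both ages, where Thrb and Rxrg had none. Esrra likewise had SOX8 and SOX9 at both ages, where Esrrb had them at P17 alone. Of 10 regulators of retinal progenitors, 9 had SOX8 and 10 had SOX9 at P2, against 15.1% and 27.7% of all genes. At P17 3 and 5 of them did, against 13.0% and 15.7%. Of 9 bipolar regulators, 5 had SOX9 at P2, against 27.7%, and 1 (Irx5) at P17, near the 15.7% of all genes. Among 12 genes of other tissues, SOX9 was at 0 at both ages and SOX8 at 0 and then 1 (Sftpc). These lists overlap in part, and Rora and Rax, for example, each stand on 2 of them.

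**Figure D5:**
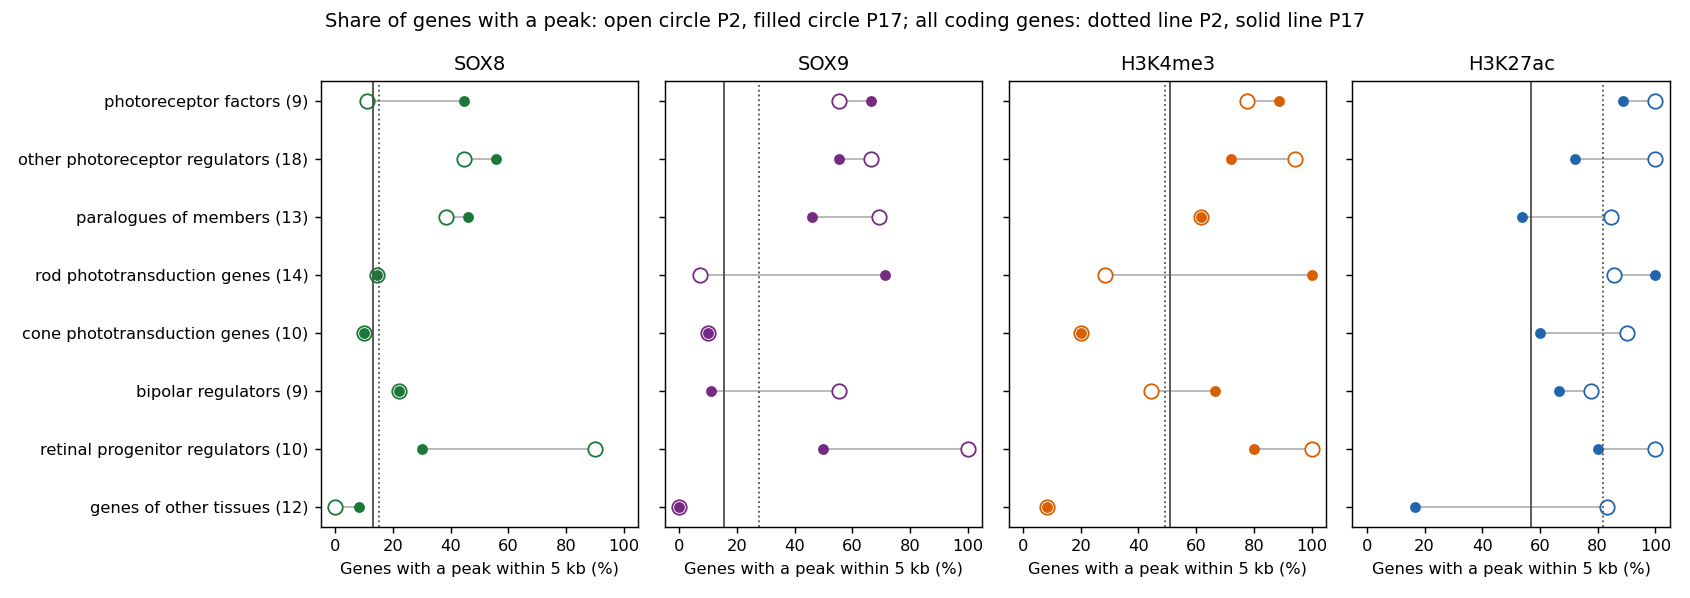
Percent of the genes of each list with a peak within 5 kb, by target, with open circles for P2 and filled circles for P17, and the number of genes in each list in parentheses. Vertical lines give the share of all protein-coding genes, dotted at P2 and solid at P17. The 14 rod phototransduction genes go from 1 to 10 with SOX9, and the 10 progenitor regulators from 10 to 5.

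The genes most like each member were found by Euclidean distance over the 8 lists in log10 of the covered bases plus 1, among genes more than 1 Mb away or on another chromosome. For Nrl the nearest 3 were Rbp3, Rd3 and Ankrd24. Rbp3 had 1837 bp under SOX8 and 9737 bp under SOX9 at P17, none at P2, and H3K4me3 of 8343 and then 14359 bp. For Otx2 they were Nr2e3, Taok2 and Chd3, and for Nr2e3 they were Taok2, Arid3a and Otx2, so these 2 members were in each other's nearest 3. Crx was nearest to Trp53, Sema4c and Sec14l2, Prdm1 to Map1b, Zeb2 and Baz2b, and Rorb to Map7, Nav1 and Frmd4b. Thrb was nearest to Snx29, Shroom3 and Dym. Rxrg was left out of this search because it had no SOX peak.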

How the data were processed

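The peak positions (chromosome, start and end) are those of the authors' deposited lists. Per the submitters' processing notes, Bowtie2, SEACR and the GRCm38 build were used. Thresholds, the use of IgG and the way libraries were combined are not given in the sources used here. The score field was 0 in every deposited line, and no list names a replicate, so no test, error or depth could be given.

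Each list was assigned to 1 group by the age and target in its name. Overlaps of at least 1 bp with genes of the RefSeq GRCm38.p6 tables were counted in Python 3.11.15 with numpy 2.4.6 and pandas 2.3.3, and plots were drawn with matplotlib. The overlap code was tested on simulated data. Background shares are over all 21887 protein-coding genes, and non-coding genes were not considered. All 9 members are named, and genes of other lists where they had a SOX peak at P17 or fell in a count of 5 or fewer, although some such genes are not reported here. The members and gene lists were chosen with earlier results of these data known. Alternatives were the 50 kb distance, no flank, 1 kb around start sites, peaks of at least 1 kb, lists of equal length, peak centres, and an overlap of 50% of the shorter peak.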

Additional observations from a re-analysis of the deposited data

How the results depend on the processing

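Of 104 values recomputed under the alternatives, 101 stayed within 1.5 times of the value reported. The other 3 were counts of members. With 50 kb on either side, 2 members had a P2 SOX8 peak in place of 1, and 1 member had SOX9 at P17 alone in place of 2. With lists of equal length, 0 members had H3K27ac at P2 alone in place of 1. A count over 9 genes moves only by whole genes, so an unchanged count says little of stability. No paired analysis was possible because the lists name no replicate, and for the same reason no replicate could be left out. Depth is unknown, so a gene outside a list was below the authors' threshold, which is not evidence that the factor was absent.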
